A study of Mus musculus with 16 samples.

Results

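Dynactin is the large complex that couples cytoplasmic dynein, the motor that walks towards the minus ends of microtubules, to its cargo. Its subunits were followed in the brain of HeCo mouse embryos, which carry a mutation in the gene of the microtubule-associated protein Eml1 and develop neurons misplaced beneath the cortex. The complex was chosen by the HeCo minus wild type difference of its largest subunit, Dctn1, seen in earlier work on these arrays, and its other members were then taken by name. Members were all probes annotated to Dctn1, Dctn2, Dctn3, Dctn4, Dctn5, Dctn6, Actr1a, Actr1b or Actr10, each probe kept separate. They came to 13 of the 45281 probes of the array and represented 7 of the 9 genes. The annotation used here lists no probe for Actr1b or Actr10, so these subunits were not analysed here. Because the comparison of the genotypes is also the one that chose the complex, differences of its members are given with their standard errors as a description and without a test.

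Brain RNA of embryonic day 18 was hybridised to 16 single-colour Illumina bead arrays. The HeCo group held 8 arrays of mutant embryos and the wild-type group 8 arrays of controls, all of the strain NOR/CD-1. The labels name no treatment, and they give no sex, litter, slide or scan date. They do not say that each array is a separate embryo, so p-values measure only the spread between these arrays. Arrays are named here by the number in their titles, which runs 1 to 4 and 9 to 12 in wild type and 5 to 8 and 13 to 16 in HeCo. In bulk RNA, fewer cells of a type and less RNA per cell cannot be told apart.

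The arrays themselves differed in a few ways that touch the values below. The mean deposited signal ran from 374.9 on wild type 10 to 597.9 on HeCo 15, and 17694 to 19553 probes were detected. The neuronal markers fixed for the labelled tissue were detected on every array (6 measured of 9 listed). The brighter Eml1 probe was detected on 8 of 8 wild-type and 0 of 8 HeCo arrays, and the other on 0 of 8 and 8 of 8. Markers of diencephalon, midbrain and hindbrain (26 measured of 31) were low on 2 HeCo arrays. Their mean log2 signal was 5.55 on HeCo 7 and 5.78 on HeCo 16, with 12 and 14 of the 26 detected. It was 7.14 to 7.76 in wild type and 7.37 to 7.68 on the other 6 HeCo arrays.

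Dynactin is built around a short filament of the actin-related protein Arp1, encoded by Actr1a and Actr1b, to which Actr10 (Arp11), Dctn4 (p62), Dctn5 (p25) and Dctn6 (p27) add the pointed-end complex. A shoulder of Dctn1 (p150Glued), Dctn2 (p50, dynamitin) and Dctn3 (p24) sits on the filament. Dctn1 projects from it to bind dynein, and through its CAP-Gly domain it can bind microtubules. In developing brain, dynein and dynactin move the nucleus and centrosome of migrating neurons and the nuclei of dividing radial glia, and they carry cargo back along axons.

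The RefSeq sequence before the start of Dctn1 is shown because its probe carries the difference that singled out the complex, and those of Dctn2 and Dctn3 because these genes form the shoulder with it. RefSeq, on the mouse build GRCm38.p6, gives 2 starts for Dctn1. Each window holds the 250 bases before a start, 5′ to 3′ on the gene's strand. Capitals mark matches, on either strand, to any of 7 motifs: the ETS core CCGGAAGT, the NRF1 motif part TGCGCA, the CCAAT box CCAAT, the CRE motif part TGACGT, the GC box GGGCGG, the TATA box TATAAA and the E box CACGTG.
Dctn1, chr6:83179339-83179588, plus strand: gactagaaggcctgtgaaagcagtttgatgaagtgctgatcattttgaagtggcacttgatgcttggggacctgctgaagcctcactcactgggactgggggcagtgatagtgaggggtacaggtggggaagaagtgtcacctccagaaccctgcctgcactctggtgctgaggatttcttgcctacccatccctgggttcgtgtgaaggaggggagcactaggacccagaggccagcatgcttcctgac
Dctn1, chr6:83185696-83185945, plus strand: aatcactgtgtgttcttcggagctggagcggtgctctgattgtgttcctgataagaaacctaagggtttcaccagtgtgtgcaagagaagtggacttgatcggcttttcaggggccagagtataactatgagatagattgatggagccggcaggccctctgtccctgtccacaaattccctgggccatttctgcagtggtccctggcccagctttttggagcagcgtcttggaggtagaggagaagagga
Dctn2, chr10:127266012-127266261, plus strand: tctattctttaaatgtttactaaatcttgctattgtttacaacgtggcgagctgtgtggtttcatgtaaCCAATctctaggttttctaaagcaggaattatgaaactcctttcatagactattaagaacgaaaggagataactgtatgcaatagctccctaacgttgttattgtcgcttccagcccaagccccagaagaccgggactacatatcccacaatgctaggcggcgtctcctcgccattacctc
Dctn3, chr4:41723164-41723413, minus strand: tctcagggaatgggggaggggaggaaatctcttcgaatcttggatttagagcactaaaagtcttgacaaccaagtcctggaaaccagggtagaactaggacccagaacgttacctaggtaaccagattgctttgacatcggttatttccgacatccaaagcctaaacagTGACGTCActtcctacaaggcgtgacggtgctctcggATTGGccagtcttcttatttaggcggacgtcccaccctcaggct

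Neither Dctn1 window held a match to the 7 motifs, and they held 1 and 5 CpG dinucleotides against a median of 6 over 32851 mouse windows of the same length. The Dctn2 window held 9 CpG and a CCAAT box at bases 70 to 74. The Dctn3 window held 10 CpG, a CCAAT box at bases 207 to 211 on the opposite strand and, at bases 170 to 177, a pair of CRE parts, 1 on each strand, that overlap and form the full palindrome. A CCAAT box was present in 33.8% of all windows and a CRE part in 6.47%. Of the members whose windows are not printed, Dctn5 had 18 CpG, Actr1a 13, Actr1b 21 and Actr10 22. A CCAAT box was found in Dctn5, Actr1a and Actr1b, a GC box (in 32.7% of all windows) in Dctn5, Actr1a and Actr10, an NRF1 part (6.43%) in Dctn5 and Actr1a, and a CRE part in Actr10. These letters describe the windows and were not set against the array values.

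Dctn1 was measured by a single probe (ILMN_2691157, annotated to RefSeq transcript NM_007835), which was dim but detected on all 16 arrays. Its deposited signal had a lowest, median and highest value of 148, 168 and 189 in wild type and of 177, 227 and 347 in HeCo, on arrays whose median signal over all probes was 76.8 to 99.4. After background correction and quantile normalization its log2 signal was 6.41 at the lowest (wild type 1), 6.73 at the median and 7.16 at the highest (wild type 2) in wild type. In HeCo it was 6.89 at the lowest (HeCo 6), 7.51 at the median and 7.81 at the highest (HeCo 7). Every HeCo array (8 of 8) exceeded the mean of the wild-type group and 7 lay above the highest wild-type array. The groups overlapped through HeCo 6, whose signal was below that of wild type 2, 3 and 9.

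The mean log2 signal of Dctn1 was 6.79 ± 0.29 in wild type against 7.41 ± 0.28 in HeCo (SD, n = 8 each). The difference was 0.63 (SE 0.13), or 1.54-fold on the scale of the background-corrected signal with an offset of 16, which shrinks the folds of dim probes. Without background correction it was 0.43 (SE 0.09). It was 0.51 (SE 0.20) among title numbers 1 to 8 and 0.74 (SE 0.14) among 9 to 16. HeCo 7 and HeCo 16, the arrays with low markers of other brain regions, had the highest and second-highest Dctn1 signals, 7.81 and 7.56. Without both the difference was 0.54 (SE 0.13). The part of these markers in the difference was not tested beyond that value.

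**Figure D1:**
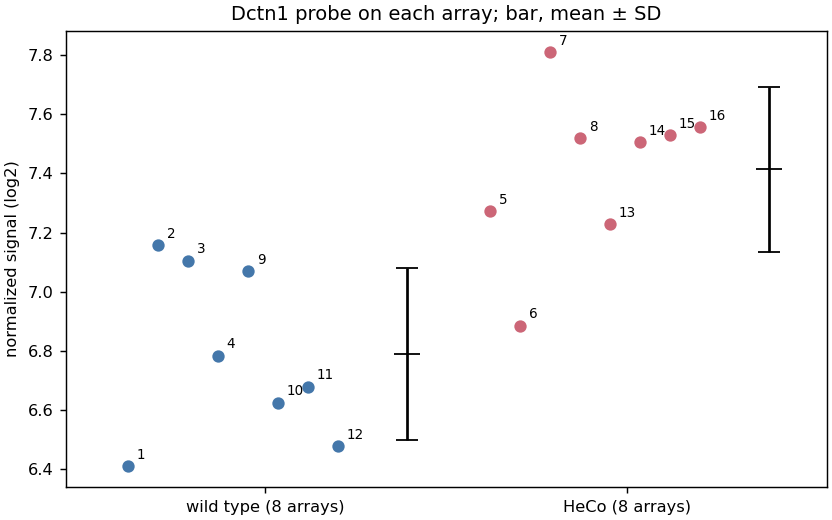
Normalized log2 signal (vertical axis) of the Dctn1 probe on each of the 8 wild-type and 8 HeCo arrays, with points labelled by title number and a bar for mean ± SD beside each group. The HeCo arrays lie between 6.89 and 7.81 and the wild-type arrays between 6.41 and 7.16, and HeCo 6 is the HeCo array that reaches into the wild-type range.

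No dynactin probe passed the threshold of the fit over all kept probes. A probe was kept where it was detected at p under 0.05 on at least 8 of 16 arrays, which held for 12 of the 13 members and 18532 probes in all. Of the 12 kept members 0 were called at a limma adjusted p under 0.05, against 0.0863% of all kept probes (16 of 18532; 1293 at an unadjusted p under 0.05). When the arrays were scaled to a common median, or without HeCo 6, 1 member was called, which was Dctn1 with differences of 0.68 (SE 0.13) and 0.70 (SE 0.12). The arrays of the groups overlapped for all 12, while 0.124% of all kept probes did not overlap. Since this comparison chose the complex, nothing is read from these counts.

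The other measured subunits all had smaller differences on the log2 scale than Dctn1. As the difference of Dctn1 chose the complex, nothing is read from its place ahead of them. Of the other 11 kept probes, which stand for 6 genes, 9 were lower and 2 higher in HeCo. Their differences ran from -0.20 to 0.15 with a median of -0.06, and their standard errors from 0.05 to 0.13. Over all 18532 kept probes 9271 were lower and the median difference was close to 0 (-0.000063). Scaling the arrays to a common median raised the median over all kept probes to 0.05 and that of the 11 to -0.0056.

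**Figure D2:**
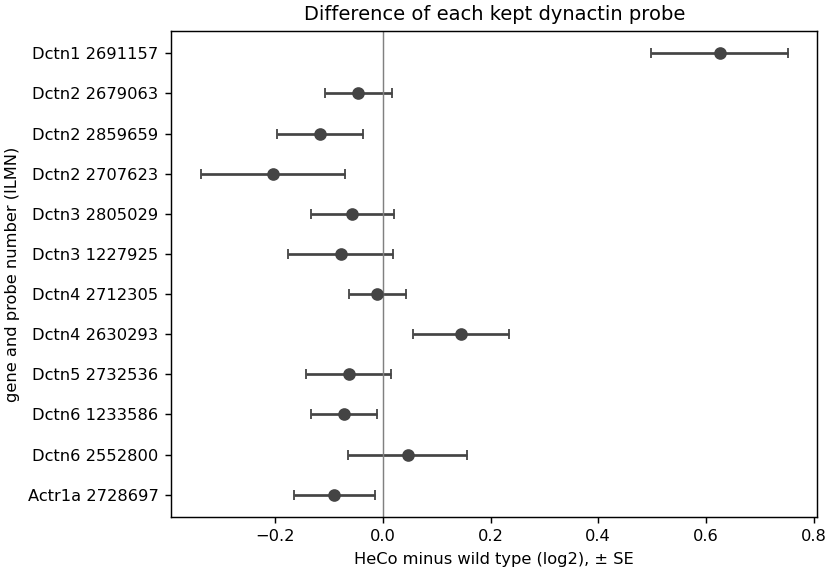
Log2 difference, HeCo minus wild type (horizontal axis), for each of the 12 kept dynactin probes, with bars for the standard error. Dctn1 stands at 0.63, and the other 11 probes lie between -0.20 and 0.15.

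Dctn2 encodes dynamitin, which joins Dctn1 to the Arp1 filament and takes the complex apart when it is overproduced. Its probe ILMN_2679063 had a log2 signal of 12.91, 13.05 and 13.13 (lowest, median, highest) in wild type and of 12.78, 12.96 and 13.19 in HeCo. The HeCo range enclosed the wild-type range, and the difference was -0.05 (SE 0.06). Probe ILMN_2859659 had 11.29, 11.45 and 11.64 in wild type and 10.96, 11.40 and 11.57 in HeCo, a difference of -0.12 (SE 0.08). On this probe 7 of 8 HeCo arrays lay below the wild-type mean. Probe ILMN_2707623, with a deposited signal of 105 to 149, had 5.62, 6.11 and 6.44 in wild type and 5.18, 5.89 and 6.38 in HeCo, a difference of -0.20 (SE 0.13). All 3 probes had their lowest value on HeCo 15, the array with the highest mean deposited signal. Without HeCo 15 their differences were -0.02, -0.06 and -0.11. Without HeCo 7 and HeCo 16 they were -0.01, -0.14 and -0.33.

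Dctn3 encodes p24, the smallest subunit of the shoulder. Probe ILMN_2805029 had a log2 signal of 11.81, 11.95 and 12.11 (lowest, median, highest) in wild type and of 11.62, 11.88 and 12.26 in HeCo, a difference of -0.06 (SE 0.08). Probe ILMN_1227925 had 10.99, 11.39 and 11.61 in wild type and 11.04, 11.23 and 11.69 in HeCo, a difference of -0.08 (SE 0.10). HeCo 16 was the highest of all arrays on both probes. Without HeCo 7 and HeCo 16 the differences were -0.13 and -0.16, and when the arrays were scaled to a common median they were -0.0011 and -0.01.

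The filament itself was represented by Actr1a, which encodes the centractin (Arp1) subunit that polymerises into the backbone of dynactin. Its probe ILMN_2728697 had a log2 signal of 12.98, 13.11 and 13.16 (lowest, median, highest) in wild type and of 12.64, 13.02 and 13.28 in HeCo. The difference was -0.09 (SE 0.07), and the SD was 0.06 in wild type and 0.21 in HeCo (n = 8 each). The HeCo arrays split by title number. HeCo 5, 6, 7 and 8 had 13.16, 13.28, 13.14 and 13.16, whereas HeCo 13, 14, 15 and 16 had 12.88, 12.88, 12.64 and 12.89. The latter 4 all lay below the lowest wild-type array. The difference was thus 0.06 (SE 0.07) among title numbers 1 to 8 and -0.23 (SE 0.08) among 9 to 16. What the title numbers stand for is not given in the labels, and whether the differences of the 2 ranges differ was not tested.

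Some of the other probes also had unlike values in the ranges of title numbers. Whether these values differ beyond their standard errors was not tested. The Dctn2 probe ILMN_2679063 had 0.07 (SE 0.08) and -0.16 (SE 0.07), with the same change of sign as Actr1a. The Dctn4 probe ILMN_2630293 had 0.03 (SE 0.12) and 0.26 (SE 0.13). The dim Dctn6 probe ILMN_2552800 had -0.07 (SE 0.17) and 0.16 (SE 0.14). Not all probes did so, and Dctn6 ILMN_1233586 had -0.07 (SE 0.08) and -0.08 (SE 0.09). Dctn1 was positive in both ranges, as given above.

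**Figure D3:**
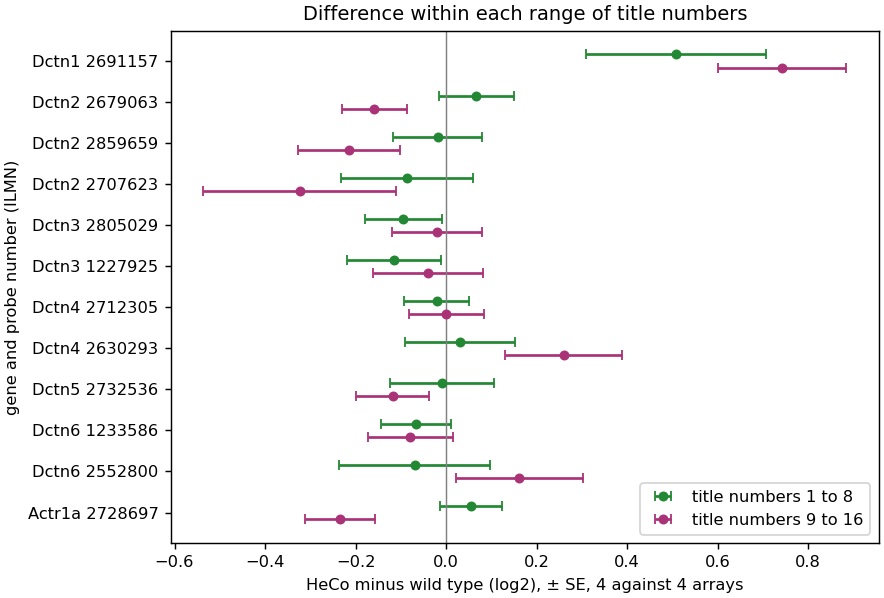
Difference of HeCo minus wild type (log2, horizontal axis) of each kept dynactin probe, computed separately among title numbers 1 to 8 and 9 to 16 with 4 arrays a group, with bars for the standard error. Actr1a lies at 0.06 and -0.23, and Dctn1 at 0.51 and 0.74.

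The pointed-end complex caps the filament and takes part in recruiting the complex to membranes and to some adaptors. Dctn4 (p62) was measured by 3 probes. ILMN_2494727 was detected on 0 of 16 arrays and was not kept. ILMN_2712305 had a log2 signal of 11.57, 11.68 and 11.79 (lowest, median, highest) in wild type and of 11.56, 11.67 and 11.81 in HeCo, a difference of -0.010 (SE 0.05). ILMN_2630293, with a deposited signal of 150 to 277, had 6.67, 6.81 and 7.17 in wild type and 6.76, 7.07 and 7.19 in HeCo, a difference of 0.15 (SE 0.09). The groups overlapped on both kept probes. These probes went against each other across arrays as well, with a Pearson's r of -0.43 once the mean of each genotype was subtracted.

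Dctn5 (p25) had a log2 signal of 11.02, 11.39 and 11.61 (lowest, median, highest) in wild type and of 11.09, 11.31 and 11.38 in HeCo on probe ILMN_2732536. The HeCo range lay inside the wild-type range, and the difference was -0.06 (SE 0.08). Dctn6 (p27) was measured by 2 probes, which are annotated to different transcript records. Once the mean of each genotype was subtracted, their Pearson's r was -0.394. ILMN_1233586 had 10.32, 10.42 and 10.59 in wild type and 10.22, 10.37 and 10.52 in HeCo. Of the HeCo arrays, 3 lay below the lowest wild-type array, and the difference was -0.07 (SE 0.06). ILMN_2552800 was detected on 6 of 8 wild-type and 7 of 8 HeCo arrays, with 4.73, 5.14 and 5.71 in wild type, 4.88, 5.22 and 5.35 in HeCo and a difference of 0.05 (SE 0.11).

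**Figure D4:**
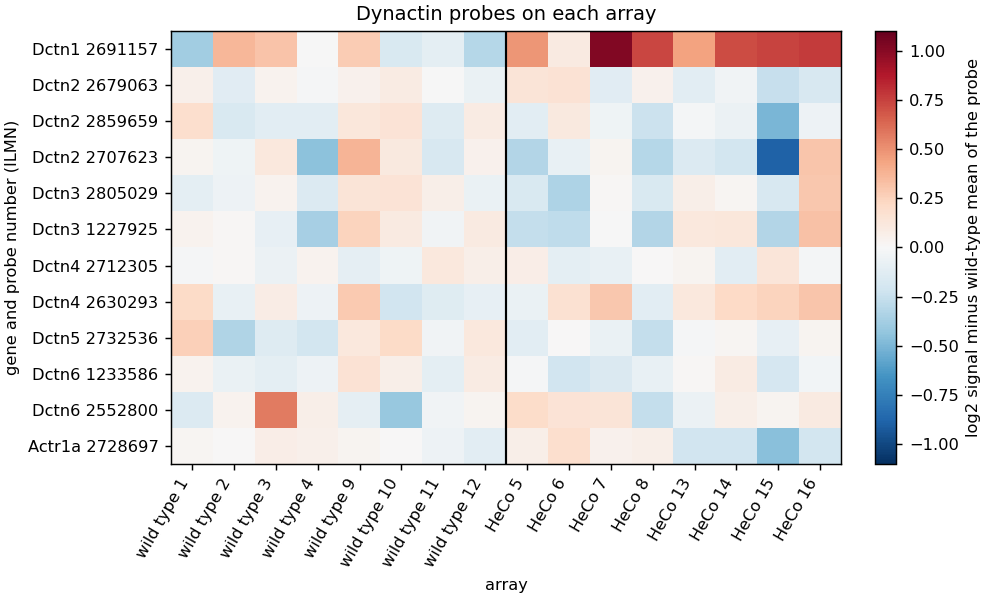
Log2 signal of each kept dynactin probe (rows) on each array (columns) after subtracting the wild-type mean of the probe, with red for higher and blue for lower signal and a line between the genotypes. Dctn1 is red on all 8 HeCo arrays, while HeCo 15 holds the lowest value of the Dctn2 and Actr1a probes.

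Within genotypes, some subunits varied together across arrays and others did not. Correlations were computed over the 16 arrays after subtracting the mean of each genotype, so the difference that chose the complex does not enter them. They are a description, since the arrays share normalization and differ in signal and background. Of the 66 pairs of kept probes, 36 had a positive r and the median was 0.101. The highest r joined the 2 Dctn3 probes (0.828, Spearman's rho 0.85, and 0.766 without HeCo 6 and HeCo 16). Between genes it was highest for Dctn2 ILMN_2679063 and Actr1a (0.771, rho 0.65), which fell to 0.558 without HeCo 6 and HeCo 15. For this pair it was 0.423 in wild type alone and 0.834 in HeCo alone. The differences of both probes changed sign between the ranges of title numbers, which subtracting genotype means leaves in. The part of that split in this r was not tested. The r was 0.768 for Dctn2 ILMN_2707623 and Dctn3 ILMN_1227925 (0.686 without wild type 4 and HeCo 15). The Dctn2 probe ILMN_2679063, in contrast, had an r of -0.286 with Dctn3 ILMN_1227925 and -0.352 with Dctn3 ILMN_2805029. The sign differed between the genotypes. These values were 0.168 and 0.533 in wild type alone, and -0.452 and -0.604 in HeCo alone. The lowest r, -0.674, belonged to Dctn2 ILMN_2707623 and Dctn4 ILMN_2712305 (rho -0.688, and -0.541 without wild type 4 and HeCo 15).

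Of the 10 pairs with an r over 0.5, 9 were among the probes of Dctn2, Dctn3, Dctn5 and Dctn6, and 0 included Dctn1. These genes hold most of the kept probes, whereas Dctn1 enters 11 of the 66 pairs. The 9 include the Dctn3 pair (0.828) and a Dctn2 pair (0.727), each of the same gene. The Dctn6 probe ILMN_2552800 was in none of them, and its highest r with a probe of these genes was 0.038. The share of other probe pairs over 0.5 was not computed, so nothing is read from these counts. Dctn5 had an r of 0.704 with Dctn2 ILMN_2859659 and 0.535 with Dctn3 ILMN_1227925, and Dctn6 ILMN_1233586 had 0.621 with the same Dctn3 probe. Of the 11 pairs with Dctn1, 5 were positive. The highest r was 0.412 with Dctn3 ILMN_2805029 (0.117 without wild type 1 and HeCo 6) and the lowest -0.526 with Dctn5 (-0.428 without the same arrays). Probes of the same gene did not always vary together, the 6 such pairs running from -0.426 (Dctn4) to 0.828 (Dctn3).

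**Figure D5:**
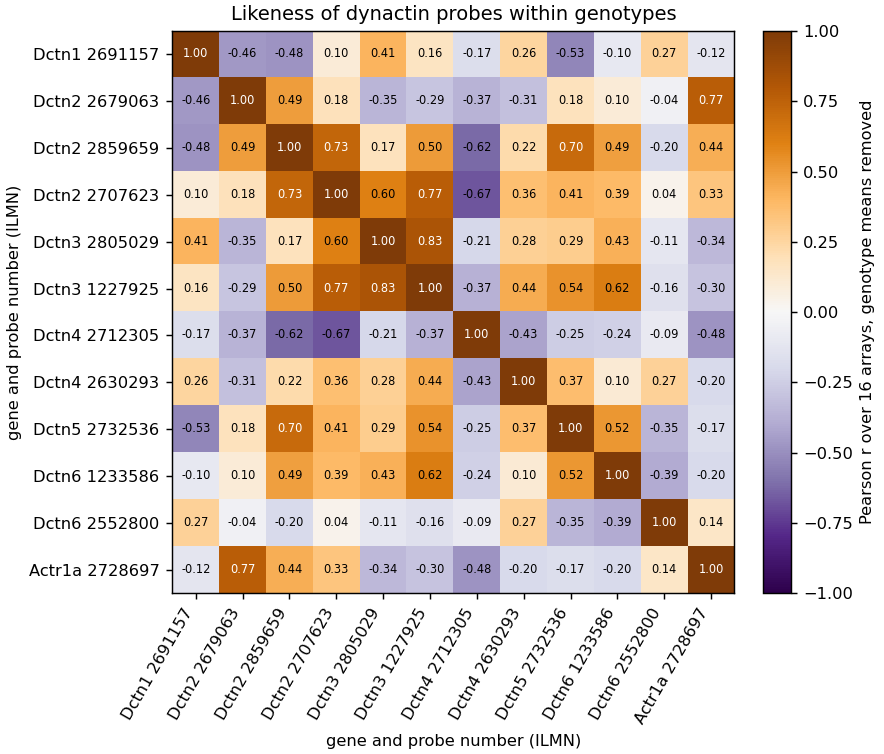
Pearson's r over 16 arrays between each pair of kept dynactin probes, after the mean of each genotype was subtracted, on a colour scale from -1 to 1 with the value in each cell. The 2 Dctn3 probes reach 0.83, and Dctn1 has values from -0.53 to 0.41 with the other probes.

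The probes whose pattern was most like that of Dctn1 within genotypes belonged to other genes. Among 15981 kept probes with a single gene symbol, the highest Pearson's r over 16 arrays were 0.891 for H3c10 (a histone H3 gene), 0.875 for Selenoh (a selenoprotein), 0.863 for Helb (DNA helicase B), 0.836 for Bri3 (a membrane protein) and 0.818 for Srr (serine racemase). Without wild type 1 and HeCo 6, the arrays farthest from the median in Dctn1, these values were 0.809, 0.776, 0.784, 0.696 and 0.771. The lowest were -0.904 for Necap1 (an endocytic adaptor-binding protein) and -0.898 for Donson (a replication fork protein). These are the extremes of many probes and are not tested. None of these 7 probes was called between the genotypes, and their differences ran from -0.08 for Helb to 0.12 for Donson.

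Genes next to Dctn1 in the RefSeq gene order were read as well, a set chosen after values had been seen. The 10 protein-coding genes on each side had 17 kept probes for 14 genes. In HeCo 5 of these probes had a higher mean and 12 a lower one. Their differences ran from -0.14 (Wdr54) to 0.17 (Actg2, SE 0.19), and 0 were called, against 0.0863% of all kept probes.

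Listed partners and related genes of dynactin were read from the same fit, and 0 of their 82 kept probes, for 46 genes, passed the threshold (limma, 4 at an unadjusted p under 0.05). They had a median difference of 0.04, with 50 higher and 32 lower. Of all 18532 kept probes, 0.0863% passed the threshold, 1293 had an unadjusted limma p under 0.05 and 9261 were higher. Nothing is read from the counts of the lists. Cytoplasmic dynein-1 subunits had 9 of 14 probes higher and a median of 0.05. The smallest p-values belonged to the light chain Dynlt3, with 8.85 ± 0.16 in wild type and 9.02 ± 0.10 in HeCo (SD, n = 8 each; difference 0.17, SE 0.07, limma adjusted p = 0.678), and to the light intermediate chain Dync1li2 (-0.13, SE 0.07, adjusted p = 0.765). Dynein regulators had 9 of 12 higher and a median of 0.04. Both leading probes were of Pafah1b1, which encodes the lissencephaly protein Lis1 (0.10, SE 0.07, and 0.17, SE 0.14; limma adjusted p = 0.833 and 0.844).

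Adaptors that join dynein to dynactin and cargo had 17 of 31 probes higher and a median of 0.01. A dim probe of Nin, the centrosomal protein ninein, was detected on 7 of 8 wild-type and 8 of 8 HeCo arrays. It had 5.25 ± 0.16 in wild type and 5.54 ± 0.19 in HeCo (SD, n = 8 each). On this probe 8 of 8 HeCo arrays exceeded the wild-type mean (difference 0.29, SE 0.10, limma adjusted p = 0.552). The other Nin probes had differences of 0.13 and 0.06. A probe of Hap1, the huntingtin-associated adaptor, had 6.02 ± 0.35 and 5.59 ± 0.42 (difference -0.43, SE 0.17, limma adjusted p = 0.648), and the other Hap1 probes had differences of -0.36 and -0.26. The brightest Hap1 probe, ILMN_1244829, had an SD of 0.12 in wild type and 0.46 in HeCo. Its lowest value was 12.82 in wild type and 11.98 in HeCo. The part of the HeCo arrays with low markers of other brain regions in the Hap1 differences was not tested. Plus-end proteins that meet Dctn1 at growing microtubule tips had 10 of 12 higher and a median of 0.07. The EB1 gene Mapre1 had 0.12 (SE 0.07, limma adjusted p = 0.751). A dim probe of Clasp2, detected on 7 of 8 wild-type and 8 of 8 HeCo arrays, had 0.23 (SE 0.13, limma adjusted p = 0.763). The other Clasp2 probe had 0.08. The list of actin-related and capping genes had 5 of 13 higher and a median of -0.02. There Actr3, a subunit of the branching complex Arp2/3 and not of dynactin, had 0.12 (SE 0.06, limma adjusted p = 0.731). The 4 kept probes of Capzb, a capping protein gene whose product closes the barbed end of the dynactin filament, did not share a direction. The dimmest, ILMN_1230100, had 0.19 (SE 0.10, limma adjusted p = 0.75), and the other 3 had -0.12, -0.07 and -0.02. A p-value that misses the threshold does not show that these genes were alike in both genotypes.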

How the data were processed

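Signals and detection p-values of 45281 probes on 16 arrays were read from the table the authors deposited. The signals are intensities on a linear scale, and no background subtraction or normalization was visible in the deposited values. Each deposited p-value compares a probe with the negative controls of its array. Per the submitters' processing notes, GenomeStudio was used, in a version not stated there. A second deposited table, the series matrix, matches quantile-normalized intensities without background correction to within 0.004741 (log2) and served as an alternative.

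Background correction, quantile normalization and log2 transformation were done with neqc (limma 3.58.1, R 4.3.3). It used an offset of 16 and a control level inferred from detection p-values. Probes detected at p under 0.05 on at least 8 arrays were kept (18532). The genotypes were compared with lmFit and eBayes, using a trend and no covariate, two-sided, with Benjamini-Hochberg adjustment over all kept probes and a threshold of 0.05. The number of arrays limits the precision. Plots were drawn with matplotlib 3.10.9 in Python 3.11.15.

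Gene symbols came from the platform annotation (34885 probes with 1 symbol, 18 with several, 10378 with none) and were updated through Entrez identifiers for 34807 probes with a RefSeq table of GRCm38.p6. Promoter windows were used for 7 of the 9 members.

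Members, lists and tests were chosen with earlier results of these data known. Named genes are all member probes, Eml1, of each partner list the probes past the threshold or else the 2 with the smallest p, the 5 probes most like Dctn1 and the 2 least like it. The genes next to Dctn1 and the promoter motifs were added later. Marker lists were used to describe the arrays: summed over 9 lists, 0 genes were called. The fit was tested on simulated data with independent noise for each probe. Effects shared by the probes of an array were not simulated.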

Additional observations from a re-analysis of the deposited data

How the results depend on the processing

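No paired analysis was possible because the title numbers are not shared between the genotypes. The difference of Dctn1 was positive in all 32 alternatives, from 0.43 without background correction or with the authors' series matrix to 0.74 among title numbers 9 to 16. With 1 array left out it ran from 0.57 (without HeCo 7) to 0.70 (without HeCo 6). The alternatives refit the same arrays and this difference chose the complex, so its sign in them is no separate support. The median of the other kept member probes ran from -0.08 to -0.0056, and with 1 array left out -0.08 to -0.04. The Dctn4 probe ILMN_2712305 kept its sign in 25 of 32 alternatives, the dim Dctn6 probe in 27 of 30, Dctn2 ILMN_2679063 in 30 of 32 and Actr1a in 31 of 32. The other 7 kept it in all. No partner probe was called in any alternative.

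The number of all kept probes called was 16 (62.5% higher in HeCo) and 13 when the arrays were scaled to a common median (84.6% higher, 11 shared). It was 8 among probes detected on all arrays, 10 with no filter, 6 with 1 probe per gene, 5 within each range of title numbers, and 6 and 4 within description numbers 1 to 8 and 9 to 16. With 1 array left out it ran from 7 (without wild type 2) to 17 (without HeCo 16), with 9 or 10 without wild type 3, 4 or 9 or HeCo 5, 13 or 14. The members called were 0, or 1 with the common median, and 0 to 1 with 1 array left out. Fewer arrays, or more or fewer probes tested, enter some of these settings by construction. Asking for detection on all arrays drops both Eml1 probes, which were called but each detected in only 1 genotype. The cause of the other changes was not tested. Dim member probes (Dctn1, Dctn2 ILMN_2707623, Dctn4 ILMN_2630293 and Dctn6 ILMN_2552800) lie near the background, which limits their differences. The same limit holds for other dim probes, among them those of Nin, Clasp2, H3c10 and Donson. Further ones are Hap1 ILMN_2676214 (difference -0.43), Pafah1b1 ILMN_1239002 (0.17) and Capzb ILMN_1230100 (0.19).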
